A study of Mus musculus with 10 samples.

Results

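The genes described here are 34 regulators and machines of mitosis: cyclins and mitotic kinases, the spindle checkpoint and the anaphase-promoting complex, the chromosomal passenger complex, the centromere and kinetochore, the spindle, the central spindle and the contractile ring, and chromosome structure. They were listed by name, with no measured value in the rule. Each was represented by the probe set with the highest mean log2 signal among those annotated to that symbol alone. This gave 33 of the 34 genes a value, out of 18193 genes with such a probe set on the array, since no probe set carried Ccnb1 alone. All 33 passed the filter on dim probe sets.

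Limbs were dissected from mouse embryos and total RNA was hybridised to Affymetrix expression arrays, 10 in all. The parents carried Dicer alleles flanked by loxP sites, heterozygous in the parent that also carried prxcre and homozygous in the other. The prxcre transgene is a Cre driver active in the limb bud mesenchyme, so cells of other origin in a limb, such as blood, endothelium and surface ectoderm, are not its main target. Dicer, encoded by Dicer1, cuts precursor hairpins into mature microRNAs. Labels assign 5 arrays to wild type and 5 to Dicer mutant, and each group carries the numbers 1 to 5. The sources used here do not give the embryonic stage, the use of forelimbs or hindlimbs, the number of embryos per array, or whether heterozygotes for the deletion count as wild type. The p-values therefore measure the spread between these samples, which may be technical.

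Mitosis genes are transcribed in a wave that peaks in the G2 and M phases, so in a tissue their mRNA is carried mainly by dividing cells. Before that wave the DREAM complex keeps many of them silent, and B-MYB and FOXM1, which share the MuvB core with it, then activate them. In the early limb bud the mesenchyme proliferates throughout, most of all beneath the apical ectodermal ridge. In whole-limb RNA, fewer dividing cells and less mRNA in each dividing cell cannot be told apart.

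Many mitosis promoters are known for CCAAT boxes, which bind NF-Y, and for the CHR (cell cycle genes homology region), the element that the MuvB core contacts. The promoter table of RefSeq (GRCm38.p6), which holds 250 bases before to 50 bases after each annotated start, had 30 promoters of 28 of the 34 genes, with overlapping pairs for Ect2 and Prc1. Both strands were searched for CCAAT, which reads ATTGG on the other strand, and for the CHR forms TTTGAA, which reads TTCAAA on the other strand, and TTTAAA, which is its own reverse complement. The stretches from 150 bases before to 50 bases after the start are shown for 7 of the genes with the smallest p-values between the labelled groups without number 2, with every match in capitals. They are chr9:61946750-61946949 (minus strand) for Kif23, chr7:80294301-80294500 (plus) for Prc1, chr1:191821323-191821522 (plus) for Nek2, chr10:69352863-69353062 (minus) for Cdk1, chr4:118437294-118437493 (minus) for Cdc20, chr5:30666736-30666935 (plus) for Cenpa and chr11:117849087-117849286 (plus) for Birc5, each written 5′ to 3′ in the direction of transcription.
Kif23: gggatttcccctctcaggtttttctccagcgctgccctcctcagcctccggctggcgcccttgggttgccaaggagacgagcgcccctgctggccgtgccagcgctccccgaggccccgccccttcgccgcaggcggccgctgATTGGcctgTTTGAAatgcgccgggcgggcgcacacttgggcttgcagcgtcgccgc
Prc1: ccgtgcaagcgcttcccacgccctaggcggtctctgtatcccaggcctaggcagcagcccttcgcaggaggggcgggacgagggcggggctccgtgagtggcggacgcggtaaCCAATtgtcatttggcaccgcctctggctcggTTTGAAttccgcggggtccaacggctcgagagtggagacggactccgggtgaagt
Nek2: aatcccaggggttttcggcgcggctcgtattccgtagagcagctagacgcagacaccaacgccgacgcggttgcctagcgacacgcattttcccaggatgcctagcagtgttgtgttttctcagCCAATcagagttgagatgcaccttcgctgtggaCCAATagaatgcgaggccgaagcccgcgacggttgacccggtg
Cdk1: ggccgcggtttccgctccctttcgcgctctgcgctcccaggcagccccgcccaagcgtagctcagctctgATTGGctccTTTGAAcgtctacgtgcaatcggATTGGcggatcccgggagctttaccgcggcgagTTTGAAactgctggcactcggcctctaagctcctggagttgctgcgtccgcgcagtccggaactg
Cdc20: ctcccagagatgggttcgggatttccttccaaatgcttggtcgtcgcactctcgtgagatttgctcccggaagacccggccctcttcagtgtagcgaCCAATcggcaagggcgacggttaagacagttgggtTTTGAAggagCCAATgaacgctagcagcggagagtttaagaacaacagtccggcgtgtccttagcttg
Cenpa: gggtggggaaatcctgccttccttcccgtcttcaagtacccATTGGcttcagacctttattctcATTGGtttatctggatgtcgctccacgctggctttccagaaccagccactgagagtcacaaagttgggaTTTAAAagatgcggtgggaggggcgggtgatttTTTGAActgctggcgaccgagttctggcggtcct
Birc5: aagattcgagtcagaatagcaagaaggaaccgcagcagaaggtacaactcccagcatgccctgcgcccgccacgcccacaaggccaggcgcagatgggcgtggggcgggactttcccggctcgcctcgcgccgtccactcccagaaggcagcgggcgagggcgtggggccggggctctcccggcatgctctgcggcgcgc

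In Kif23 a CCAAT box and the TTTGAA form lay side by side at the start, at positions -7 and 2 counted from 0 at the first transcribed base. Prc1, taken at the first of its starts, had the same pair at -37 and -5. Cdc20 had CCAAT at -53 and -8 with TTTGAA at -18 between them, and Cdk1 had 3 CCAAT boxes and 2 TTTGAA matches, of which CCAAT at -208 lies before the stretch shown. Nek2 had CCAAT at -26 and 7 and no match to either CHR form. Cenpa had CCAAT at -109 and -86, TTTAAA at -17 and TTTGAA at 16. In Birc5 the only match was TTTAAA at -220, before the stretch shown.

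Over the 30 promoters of mitosis genes, CCAAT was present in 23 (76.7%), against 37.4% of the 32851 promoters in the table. TTTGAA was present in 22 (73.3%, against 17.9%) and TTTAAA in 9 (30%, against 13.2%). A CHR form lay within 50 bases of the start in 22 (73.3%, against 8.28%), and in 20 of these promoters a CCAAT box was present as well (66.7%, against 3.35%). In 6 promoters a pair of CCAAT boxes was spaced 30 to 35 bases apart (20.0%, against 1.64%). Among 80 promoters of other mitosis genes the share with a CHR form near the start was 40%, and among 50 promoters of DNA replication genes it was 14.0%. Mad2l1, Nuf2 and Nusap1 had no match at all in the window. A match is a description of the letters, not a site shown to be bound in these limbs.

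**Figure D1:**
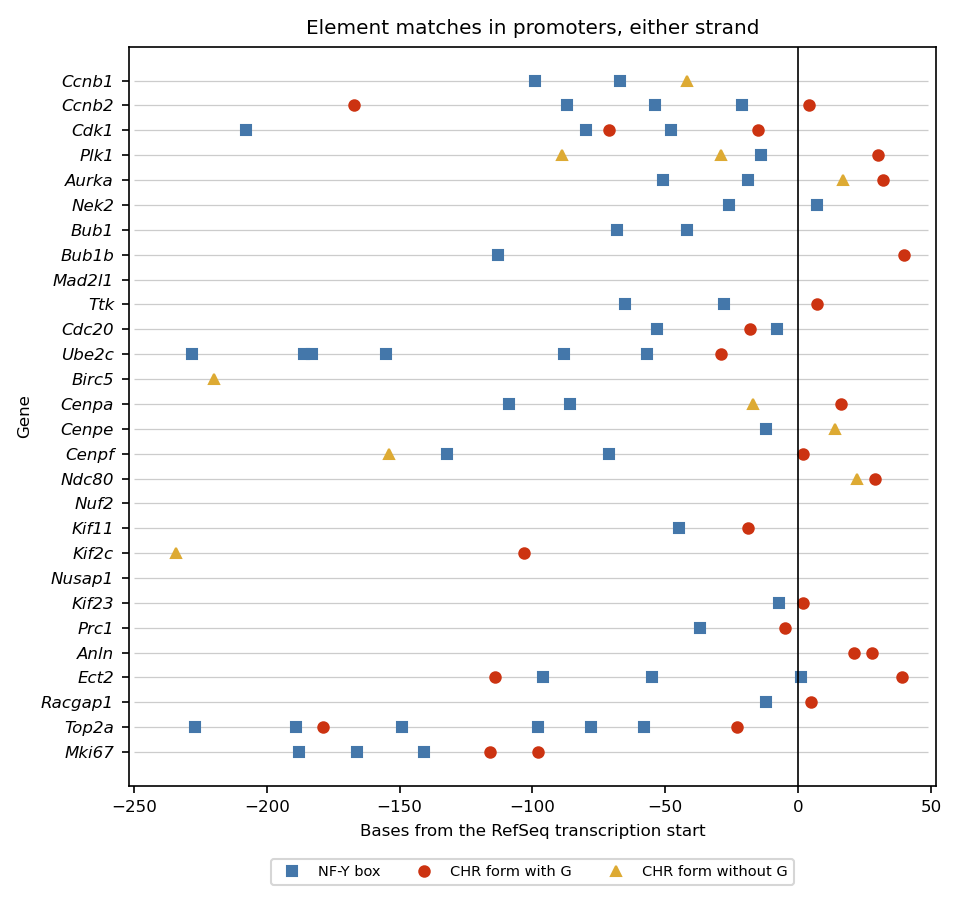
Matches in the promoters of the 28 mitosis genes in the RefSeq table, by distance in bases from the annotated start (horizontal axis), with the first start shown for genes with 2. Squares are CCAAT (the NF-Y box), circles TTTGAA (the CHR form with G) and triangles TTTAAA (the CHR form without G); most rows have a circle or triangle close to the start, and Mad2l1, Nuf2 and Nusap1 have no symbol.

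The label check touches every comparison. Dicer1 read 425, 233, 372, 390 and 706 in wild type arrays 1 to 5 and 226, 360, 221, 215 and 205 in Dicer mutant arrays 1 to 5. Against both labels, wild type 2 as labelled lay below every other wild type array, and Dicer mutant 2 as labelled lay above every other mutant array. The second Dicer1 probe set showed the same order, with 551 for wild type 2 and 774 for Dicer mutant 2 as labelled. Counts of calls, and fold changes of the genes whose test is described, are therefore given for the 10 arrays as labelled and for the 8 arrays left without number 2, unless a sentence names 1 set alone. The limb mesenchyme markers (Prrx1, Prrx2, Twist1, Lhx2, Lhx9, Msx1, Tbx5, Tbx4, Hand2 and Hoxd13) were all past the filter. Their summed signal was 13770.3 to 17401 in wild type arrays and 14218 to 17002 in Dicer mutant arrays. No tested gene was called in either comparison among the marker lists of red cells, white blood cells, muscle, endothelium, surface ectoderm, nerve and cartilage. The same held for the limb mesenchyme markers. Genes below the filter were not tested. Tested were 6 of 8 red cell, 5 of 11 white blood cell, 7 of 9 muscle and 7 of 8 endothelium markers on the array. Of the others, 8 of 8 surface ectoderm, 3 of 5 nerve and 5 of 12 cartilage markers were tested. With the array number as a block, the 8 arrays gave 4 calls among all these lists. The background of such calls was 5.41% of all tested probe sets (2.40% higher and 3.01% lower). Tyrobp and Ctss of white blood cells (log2 fold changes 0.49 and 0.43) and Tbx4 of the limb mesenchyme (0.58) were higher. Krt14 of the surface ectoderm (-0.45) was lower. Of the 11 white blood cell markers, tested or not, 10 had higher mean log2 signals in the mutant arrays of the 8-array set. All 11 summed to 1943 to 2189 in wild type and 2104 to 2503 in mutant arrays there. Muscle markers varied widely between arrays, from 2157 to 6384 in wild type and from 2214 to 7386 in mutant arrays. The part of other cell types in the results was not tested.

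With all 10 arrays as labelled, no mitosis gene passed the test. Of the 33 genes, 17 had higher and 16 lower mean log2 signals in Dicer mutant arrays, where 40.3% of all tested probe sets were higher, and the median log2 fold change (mutant minus wild type) was 0.0012, against -0.021 over all 22519 tested probe sets. The split depended on the settings: with quantile normalization 24 of the 33 were higher (median 0.022), and with array weights 21 were (median 0.091). The values ran from -0.20 to 0.34. Every adjusted p of a mitosis gene was 1.00 in limma, and the background past 0.05 was 0% of all tested probe sets. At an unadjusted p under 0.05 there was 1 of the 33, Kif23, with a higher mutant mean, beside a background of 2.81% (0.702% higher and 2.10% lower). In none were the groups apart, meaning that all arrays of one group lay above all of the other, beside a background of 0.400% (0.107% higher and 0.293% lower).

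Without number 2, 2 mitosis genes rose in the Dicer mutant arrays, Kif23 and Prc1, both of the central spindle. They are 6.06% of the 33, beside a background of 1.68% of all tested probe sets called in either direction and 0.928% called higher. None fell, beside a background of 0.750%. Over the 33 genes, 24 had higher and 9 lower mutant means (47.7% of all tested probe sets were higher), with a median log2 fold change of 0.068 against -0.0064 over all tested probe sets, and values ran from -0.34 to 0.52. Further genes had an unadjusted p under 0.05: Cdk1, Nek2, Cdc20 and Cenpf with higher and Birc5 and Cenpa with lower mutant means, which with Kif23 and Prc1 makes 24.2% against a background of 12.7% (5.24% higher and 7.48% lower). The groups lay apart in 7 genes (21.2%, against a background of 9.09%, with 4.12% higher and 4.97% lower), higher in mutant arrays for Cdk1, Nek2, Cdc20, Cenpf, Kif23 and Prc1 and lower for Birc5. With the array number as a block, 4 of the 33 were called, Kif23, Prc1 and Nek2 higher and Cenpa lower, beside a background of 5.41% of all tested probe sets (2.40% higher and 3.01% lower).

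**Figure D2:**
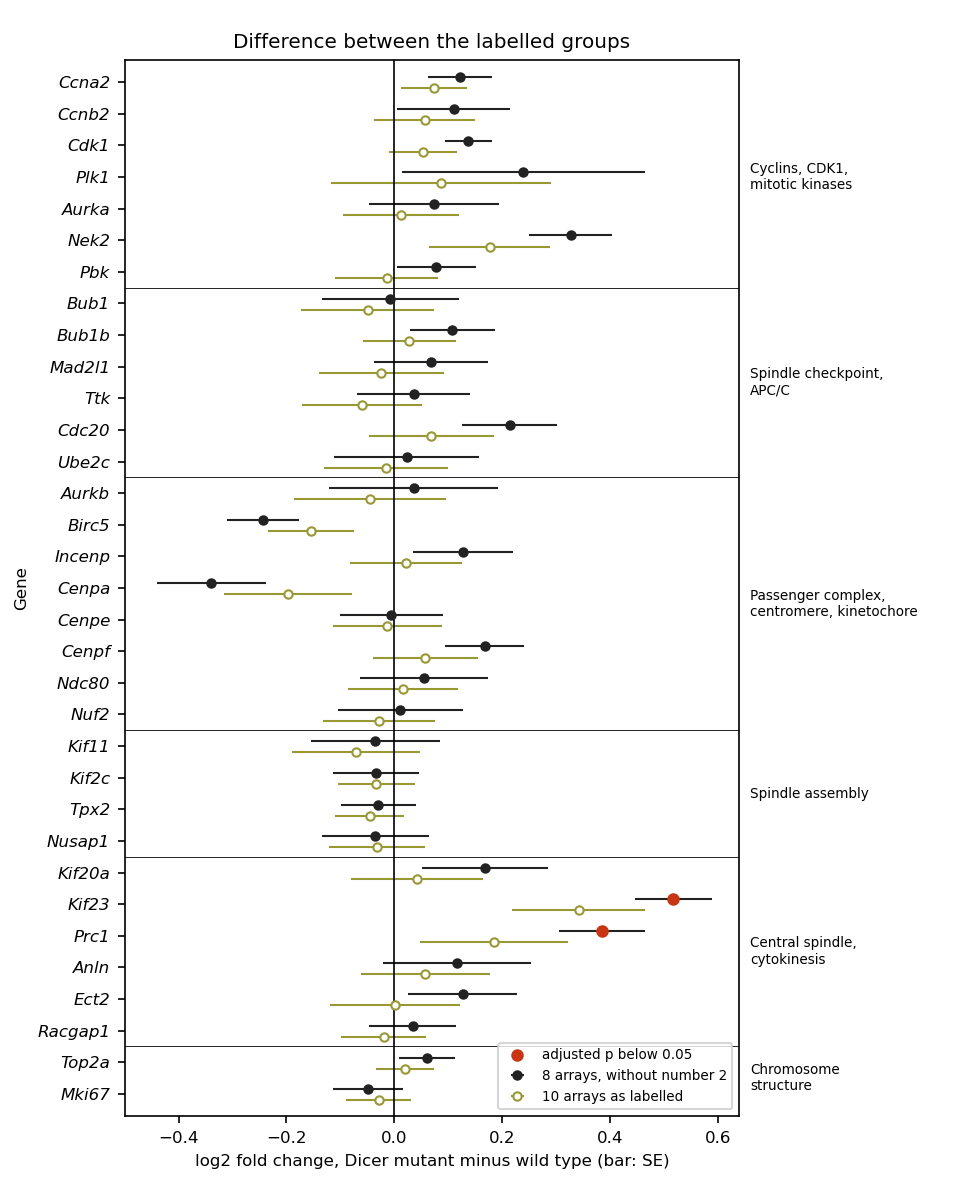
Log2 fold change (Dicer mutant minus wild type, horizontal axis) of each of the 33 genes with its standard error, for the 8 arrays without number 2 (filled points) and the 10 arrays as labelled (open points), genes grouped by role. Red points, Kif23 and Prc1, passed an adjusted p of 0.05 in limma, and both lie nearer 0 in the 10 arrays.

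The central spindle and cytokinesis genes build the microtubule bundle between the separating chromosomes and place the cleavage furrow. All 6 had higher mutant means in the 8 arrays, with log2 fold changes from 0.034 to 0.52 and a median of 0.15, and 2 of them passed the test. The 10-array median was 0.050 and none passed. Kif23 encodes the kinesin MKLP1, which pairs with the product of Racgap1 to form centralspindlin. Its signal was 1007, 1326, 1110.0, 1061 and 974 in wild type arrays 1 to 5 and 1410.3, 1032, 1463, 1498 and 1570.4 in Dicer mutant arrays 1 to 5. In numbers 1, 3, 4 and 5 every mutant array stood above every wild type array, and in number 2 the order was turned, with the array labelled wild type the highest of its group and the array labelled Dicer mutant below the other 4. The log2 fold change in the 8 arrays was 0.52 with a standard error of 0.072, which is 1.43-fold (limma, adjusted p = 0.0113, and 0.0132 with the number as a block). Over the 10 arrays as labelled it was 0.34 with a standard error of 0.12 (unadjusted p = 0.0174, adjusted p = 1.00). A second Kif23 probe set past the filter also rose in the 8 arrays, by 0.56 (adjusted p = 0.0387). Leaving out Dicer mutant 4 or 5 ended the call on the main probe set (adjusted p = 0.0514 and 0.0518).

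Prc1 encodes the protein that crosslinks antiparallel microtubules at the spindle midzone. Its signal was 868, 1224, 928, 874 and 796 in the wild type arrays and 1233, 799, 1126, 1081 and 1086 in the Dicer mutant arrays. The groups were apart in numbers 1, 3, 4 and 5 and the order was again turned in number 2, where the array labelled wild type read the highest of its group and the array labelled Dicer mutant the lowest. The log2 fold change in the 8 arrays was 0.39 with a standard error of 0.080, which is 1.31-fold, and the adjusted p of 0.0498 lay just inside the threshold (0.0259 with the block). Over the 10 arrays it was 0.18 (unadjusted p = 0.203, adjusted p = 1.00). The second Prc1 probe set had a log2 fold change of 0.34 and an adjusted p of 0.0905, and leaving out single arrays ended the call in 7 of 8 cases.

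The other genes of this role did not pass in either comparison. Kif20a, a kinesin that carries the passenger complex to the midzone, read 771 in wild type 5 and 1050.4 to 1270.4 in the other wild type arrays, against 923 to 1143 in mutant arrays. Ect2, the exchange factor that activates RhoA at the furrow, read 1003 to 1267 in wild type and 888 to 1348 in mutant arrays. Anln, which encodes the ring scaffold anillin, read 1045 to 1330.3 and 1066 to 1504. Racgap1, the partner of Kif23 in centralspindlin, read 617 to 760.4 and 645 to 711, with a log2 fold change of 0.03 in the 8 arrays. Whether the differences of Kif23 and Racgap1 differ was not tested.

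**Figure D3:**
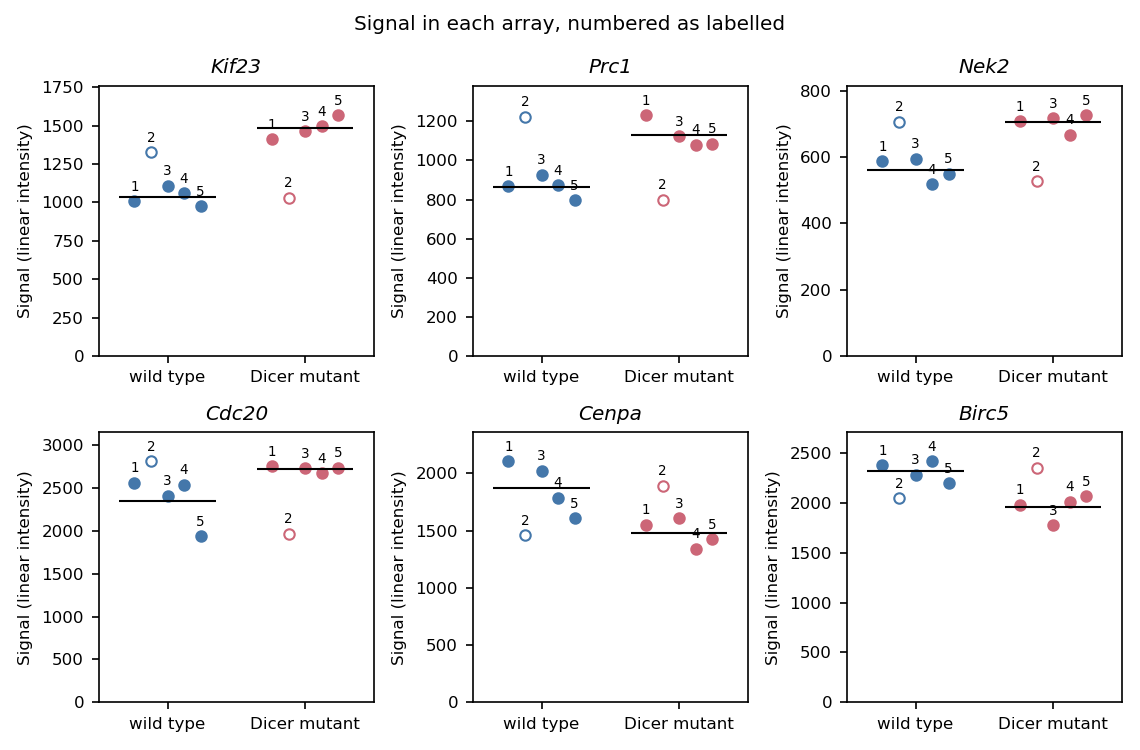
Linear signal (vertical axis, from 0) of Kif23, Prc1, Nek2, Cdc20, Cenpa and Birc5 in each array, numbered as labelled, wild type in blue and Dicer mutant in red, with number 2 as open circles and lines at the geometric means of the other 4 arrays of each group. In all 6 genes the open circle of each group is shifted from its own filled circles toward or past those of the other group.

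Cyclin-dependent kinase 1 with its cyclins drives entry into mitosis, and the kinases beside it prepare centrosomes and chromosomes. All 7 of these genes on the array had higher mutant means in the 8 arrays, with log2 fold changes from 0.073 to 0.33 and a median of 0.12, and none passed the test without the block. Their median in the 10 arrays was 0.056. Nek2, whose kinase separates the duplicated centrosomes, read 588, 707, 595, 519 and 550.2 in wild type arrays and 709, 527, 718, 668 and 728 in Dicer mutant arrays. Outside number 2 the groups were apart, and within it the array labelled wild type read higher than the one labelled Dicer mutant. Its log2 fold change was 0.33 with a standard error of 0.077 in the 8 arrays (limma, adjusted p = 0.0804, and 0.0338 with the number as a block) and 0.18 in the 10 arrays (adjusted p = 1.00). A dimmer Nek2 probe set past the filter had a log2 fold change of 0.19 and an adjusted p of 0.473.

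Cdk1 read 3642, 4127, 3655, 3552 and 3551 in wild type arrays and 3817, 3406, 4064, 3896 and 4059.9 in Dicer mutant arrays. The wild type arrays other than number 2 lay close together and below all mutant arrays other than number 2, whereas the array labelled wild type 2 was the highest of all 10 and the array labelled Dicer mutant 2 the lowest. Cdk1 had a log2 fold change of 0.14 with a standard error of 0.044 in the 8 arrays (adjusted p = 0.196 in limma) and 0.05 in the 10 arrays (adjusted p = 1.00). Ccna2, the cyclin of S phase and mitotic entry, read 2024 to 2241 in wild type and 2063 to 2413 in mutant arrays, and Ccnb2, a mitotic B-type cyclin, 1457 to 1958 and 1660.0 to 1931. Plk1, the polo-like kinase of centrosome maturation and chromosome separation, varied most of the 7 across arrays. It read 1237, 1255, 1072, 819 and 627 in wild type and 1337, 871, 1256, 849.8 and 928 in mutant arrays, with overlapping groups. The kinase genes Aurka, which acts at spindle poles, and Pbk read 826 to 1214 and 1326 to 1439.5 in wild type arrays and 1037 to 1201 and 1091 to 1590.5 in mutant arrays.

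The spindle checkpoint holds the anaphase-promoting complex, a ubiquitin ligase, until every kinetochore is attached. Of the 6 genes of the checkpoint and the complex, 5 had higher mutant means in the 8 arrays and 2 in the 10 arrays, with medians of 0.052 and -0.019, and none passed. Cdc20 encodes the activator of the complex that the checkpoint restrains. It read 2559, 2807, 2409, 2536 and 1937 in wild type arrays and 2753, 1968, 2726, 2669 and 2736 in Dicer mutant arrays. The mutant arrays other than number 2 lay within a narrow range above all 4 wild type arrays, and the array labelled Dicer mutant 2 was far below them. Cdc20 had a log2 fold change of 0.21 with a standard error of 0.089 in the 8 arrays (limma, adjusted p = 0.349) and of 0.07 in the 10 arrays, and its other probe sets gave 0.17 and 0.19 in the 8. Bub1b, which encodes the checkpoint protein BubR1, read 1285, 1356, 1247, 1179 and 1246 in wild type arrays and 1519, 1108, 1282, 1274 and 1279 in Dicer mutant arrays. The groups overlapped in the 8 arrays, through wild type 1 and the mutants numbered 3, 4 and 5. The log2 fold change of Bub1b was 0.11 with a standard error of 0.079 (limma, adjusted p = 0.696), against 0.03 in the 10 arrays. Its other probe sets past the filter gave 0.18 (adjusted p = 0.376) and, in a dimmer one, 0.57 (adjusted p = 0.534) in the 8.

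The checkpoint kinase genes Bub1 and Ttk read 1464 to 2076 and 740.4 to 872 in wild type arrays and 1297 to 1876 and 641 to 976 in mutant arrays. Mad2l1, whose product binds Cdc20 when the checkpoint is on, read 1379 to 1739.9 and 1180.2 to 1852. Ube2c, the ubiquitin-conjugating enzyme of the anaphase-promoting complex, read 2149 to 2906 and 2138 to 3007. All 4 overlapped between the groups.

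The chromosomal passenger complex corrects wrong attachments, and the centromere and kinetochore carry the attachment itself. Of 8 genes, 5 had higher and 3 lower mutant means in the 8 arrays, with log2 fold changes from -0.34 to 0.17 and a median of 0.024, and none passed without the block. Cenpa encodes the histone H3 variant that marks centromeres. It read 2103, 1459, 2022, 1786 and 1606 in wild type arrays and 1549, 1889, 1609.7, 1339.8 and 1422 in Dicer mutant arrays. Within each of the numbers 1, 3, 4 and 5 the mutant array was the lower, but wild type 5 and Dicer mutant 3 overlapped by a few units, and number 2 had the opposite order. The log2 fold change was -0.34 with a standard error of 0.10 in the 8 arrays (limma, adjusted p = 0.161, and 0.0311 with the block) and -0.20 in the 10 arrays (adjusted p = 1.00). A dimmer Cenpa probe set past the filter gave -0.56 with an adjusted p of 0.776.

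Birc5 encodes survivin, the passenger subunit that docks the complex on chromatin. It read 2373, 2045, 2279.7, 2413 and 2197 in wild type arrays and 1978, 2350.5, 1776, 2010.5 and 2064 in Dicer mutant arrays. Outside number 2 all mutant arrays lay below all wild type arrays, and number 2 was turned. Birc5 had a log2 fold change of -0.24 with a standard error of 0.067 in the 8 arrays (adjusted p = 0.131 in limma, and 0.0587 with the block) and of -0.16 in the 10 arrays (adjusted p = 1.00). Its partners in the complex did not share that order in the 8 arrays, with log2 fold changes of 0.04 for the kinase gene Aurkb and 0.13 for the scaffold gene Incenp. In the 10 arrays Aurkb was lower as well (-0.045) and Incenp was at 0.021. Neither gene passed in either comparison.

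Ndc80, whose product joins that of Nuf2 in the microtubule-binding complex of the outer kinetochore, was the dimmest of the 33 probe sets. It read 431, 478, 438, 532 and 396 in wild type arrays and 431, 434, 408, 504 and 523 in Dicer mutant arrays, so the groups overlapped fully. Its log2 fold change was 0.05 with a standard error of 0.12 in the 8 arrays (limma, adjusted p = 0.937) and 0.02 in the 10 arrays, and Nuf2 read 725 to 967 and 717 to 939. Cenpf, a large outer kinetochore protein, read 1095 to 1251 in wild type arrays and 959 to 1392 in mutant arrays, with the groups apart outside number 2. Cenpe, a kinesin that moves chromosomes to the spindle equator, read 859.7 to 1080.1 and 834 to 1111.

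The 4 spindle assembly genes differed little between the groups. By the probe set used, all had lower mutant means in both comparisons, and none passed. Log2 fold changes ran from -0.035 to -0.030 in the 8 arrays, with medians of -0.035 and, in the 10 arrays, -0.039. Other probe sets past the filter were higher in the 8 arrays for Tpx2 (0.050), Kif2c (0.057) and Kif11 (0.023). A further one of Kif2c (-0.023) and of Kif11 (-0.0010) was lower. Tpx2, whose product activates Aurora A and nucleates microtubules, read 1187, 1175, 1157, 1116 and 1035 in wild type arrays and 1092, 1089.6, 1118, 1092 and 1096 in Dicer mutant arrays. The mutant values fell within the wild type range in every array. Its log2 fold change was -0.03 with a standard error of 0.069 in the 8 arrays (limma, adjusted p = 0.946) and -0.05 in the 10 arrays. Kif2c, a kinesin that takes microtubule ends apart, read 1186, 1071, 1179, 1134 and 992 in wild type arrays and 1142, 1050.2, 1113, 1049 and 1074 in Dicer mutant arrays, again within the wild type range (-0.03 in the 8 arrays, standard error 0.080, adjusted p = 0.946, and -0.03 in the 10). Kif11, which pushes spindle poles apart, read 986 to 1271 and 852 to 1267, and Nusap1, which bundles spindle microtubules, 1207 to 1434 and 1113 to 1457. By the probe set used, Kif11 was the 1 gene of the 33 with the same sign in all 5 numbers, lower in the mutant array. In number 5 that difference was only -0.0043 on the log2 scale. The other Kif11 probe sets past the filter were higher in the mutant array of number 5, by 0.19 and 0.50. One of them was also higher in number 3, by 0.071.

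Top2a, the topoisomerase that untangles sister chromatids, was the brightest of the 33 probe sets. It read 4068, 4482, 4355, 4285 and 4545 in wild type arrays and 4239, 4054, 4443, 4722 and 4597 in Dicer mutant arrays, and the groups overlapped. Its log2 fold change was 0.06 with a standard error of 0.052 in the 8 arrays (limma, adjusted p = 0.759) and 0.02 in the 10 arrays. Mki67, which encodes the proliferation marker Ki-67 of the chromosome surface, read 2696 to 3219 in wild type and 2748.5 to 2998 in mutant arrays, with a log2 fold change of -0.05 and a standard error of 0.066 in the 8 arrays (adjusted p = 0.881).

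Across arrays, the level of the whole set was described as each gene's log2 signal minus its mean over the 10 arrays, with the median taken over the 33 genes. This was 0.026, 0.088, -0.048, 0.0029 and -0.086 in wild type arrays 1 to 5 and 0.051, -0.19, 0.010, 0.10 and 0.11 in Dicer mutant arrays 1 to 5. The array labelled Dicer mutant 2 was the lowest and Dicer mutant 4 and 5 the highest. The lowest signal of a gene lay in the array labelled Dicer mutant 2 for 13 genes and in wild type 5 for 12, 25 of the 33 together, whereas over all tested probe sets these arrays held the lowest value in 20.7% and 18.1%. The same median over the other mitosis genes was -0.068 in the array labelled Dicer mutant 2 and -0.091 in wild type 5. Over the DNA replication genes it was -0.096 and -0.076. Over all tested probe sets, the medians of the 10 arrays stayed between -0.042 and 0.027.

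**Figure D4:**
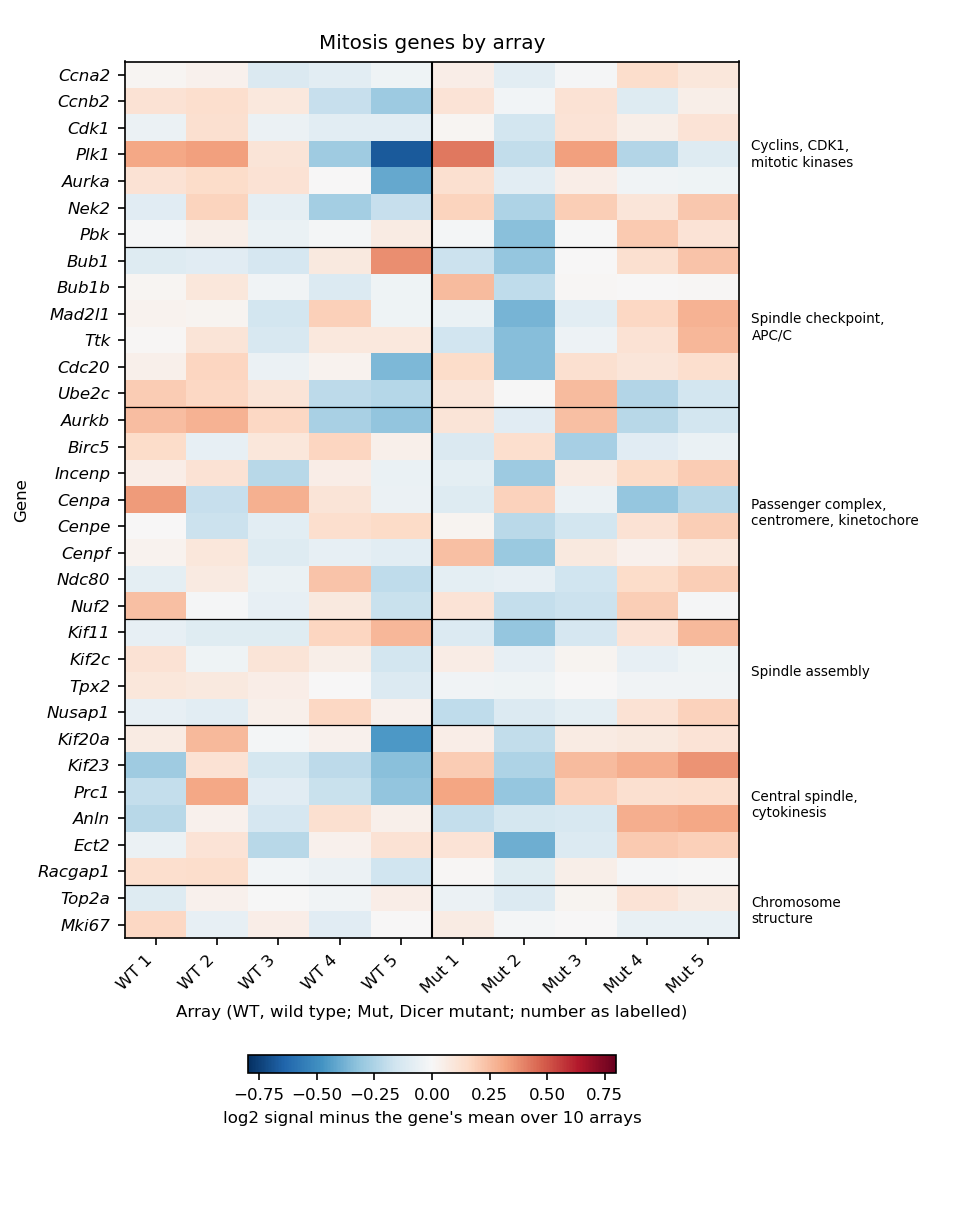
Log2 signal of each of the 33 genes (rows, grouped by role) minus its mean over the 10 arrays (columns), red above and blue below the mean. The column of Dicer mutant 2 is mostly blue, with Birc5 and Cenpa red, and the rows of Kif23 and Prc1 are blue in wild type 1, 3, 4 and 5 and red in Dicer mutant 1, 3, 4 and 5.

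Within numbers, the mutant array read higher than the wild type array in 15, 3, 22, 22 and 28 of the 33 genes for numbers 1 to 5. The median differences were -0.0069, -0.23, 0.064, 0.048 and 0.17 on the log2 scale. Over all tested probe sets the mutant array was higher in 44.3%, 38.7%, 49.8%, 49.8% and 48.1%. Number 2 was thus low and number 5 high for these genes. By the probe set used for each gene, the mutant array was the higher in each of the numbers 1, 3, 4 and 5 in 12 genes. In 3 genes (Birc5, Cenpa and Kif11) it was the lower in each. In 27 of the 33, the difference in number 2 had the opposite sign to the log2 fold change over the 8 arrays, including both called genes. For the counts of 12, 3 and 27 genes, no share over all tested probe sets was taken. They are therefore not read as particular to mitosis genes.

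**Figure D5:**
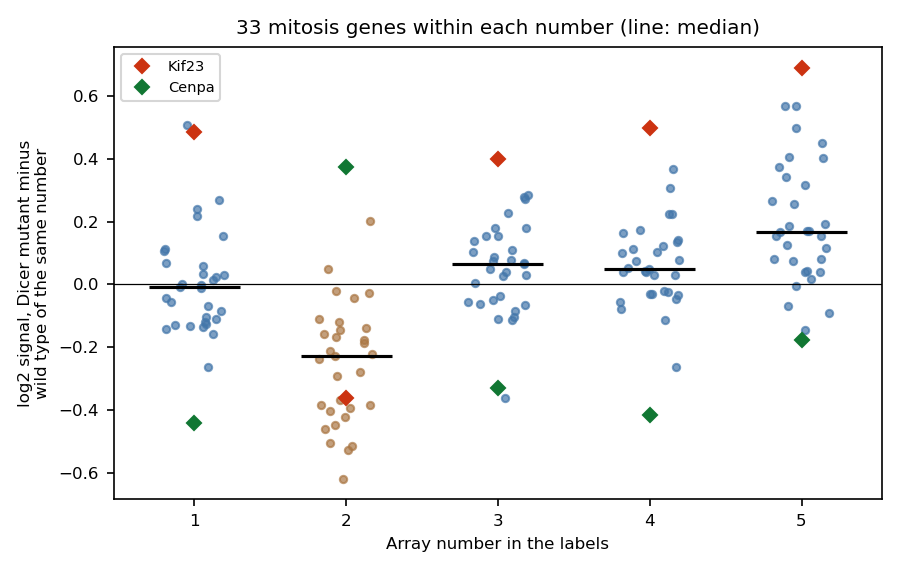
Difference in log2 signal between the Dicer mutant and wild type arrays that share a number (vertical axis) for the 33 genes, by array number, with a line at the median. Kif23 (red diamonds) is above 0 and Cenpa (green diamonds) below 0 in numbers 1, 3, 4 and 5 and the reverse in number 2, whose median is -0.23.

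The arrays also differed by number irrespective of group. The first principal component of all tested probe sets, with 37.7% of the variance, separated numbers 1 to 3 from 4 and 5. Bub1, Cenpe, Kif11 and Anln read higher in all 4 arrays numbered 4 and 5 than in all 6 others, and Ube2c and Aurkb read lower in all 4, beside backgrounds of 8.34% and 11.7% of all tested probe sets. Within numbers 4 and 5 the Kif23 log2 fold change was 0.59 (limma, adjusted p = 0.340, 2 arrays against 2) and within numbers 1 and 3 it was 0.44 (adjusted p = 0.0382). For Prc1 the values were 0.38 (adjusted p = 0.421) and 0.39 (adjusted p = 0.0575). For Cenpa within numbers 1 and 3 the log2 fold change was -0.38 (adjusted p = 0.0343). On the log2 scale Cenpa differed by -0.41 in number 4 and by -0.18 in number 5, and it was not called within numbers 4 and 5. The fits within numbers 1 and 3 also had 2 arrays against 2. The share of all tested probe sets called in those fits is not given here.

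Other genes of mitosis, in a list of 85 that excludes the 33, gave 3 calls in the 8 arrays, all higher: Cep55, Zwint and Wee1. That is 3.66% of the 82 tested, beside the background of 1.68%, and in the 10 arrays none was called. Of the 85, 51 had higher and 34 lower mutant means in the 8 arrays, with a median of 0.058, and 47 and 38 in the 10 arrays, with a median of 0.011. Cep55, which recruits the abscission machinery to the midbody, had the largest difference of the 3. It read 641, 1193, 644, 633 and 551 in wild type arrays and 1006, 635, 1014, 1125 and 1125 in Dicer mutant arrays, apart outside number 2 and turned within it, as in Kif23 and Prc1. The log2 fold change in the 8 arrays was 0.79 with a standard error of 0.084, which is 1.73-fold (limma, adjusted p = 0.00328), and it kept its call in all 8 fits that leave out 1 array. All 10 arrays gave 0.45 (unadjusted p = 0.0573, adjusted p = 1.00), and the second Cep55 probe set 0.57 in the 8 (adjusted p = 0.115).

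Wee1, the kinase that holds Cdk1 inactive before mitosis, read 1051, 1401, 1068, 973 and 939 in wild type arrays and 1350.5, 985, 1507, 1333 and 1279 in Dicer mutant arrays (0.44 in the 8 arrays, standard error 0.080, adjusted p = 0.0337 in limma). Its log2 fold change in the 10 arrays was 0.25 (adjusted p = 1.00), and its second probe set gave 0.40 in the 8 (adjusted p = 0.118). Zwint, a kinetochore protein, rose by 0.32 in its brightest probe set in the 8 arrays (standard error 0.061, adjusted p = 0.0378, against 0.16 and 1.00 in the 10), but the other Zwint probe sets gave log2 fold changes from -0.26 to 0.18 and the mean over all of them was -0.0056. The 16 genes of the transcription machinery of mitosis (FOXM1, B-MYB, the MuvB and DREAM subunits and NF-Y) had 14 higher and 2 lower mutant means in the 8 arrays, with a median of 0.075 and 1 call. In the 10 arrays they had 13 higher and 3 lower, with a median of 0.045 and 0 calls. The 1 call is 6.25% of the 16, beside a background of 1.68% called in either direction and 0.928% called higher. Of all tested probe sets, 47.7% were higher in the 8 arrays and 40.3% in the 10. E2f5, a repressor E2F, was the 1 called, with signals of 811, 1118, 851, 896 and 849 in wild type and 1029, 733, 1203, 1145 and 1165 in Dicer mutant arrays (0.41 in the 8 arrays, standard error 0.077, adjusted p = 0.0349, against 0.21 and 1.00 in the 10). Its other probe sets past the filter gave 0.39 (adjusted p = 0.0906) and 0.020 (adjusted p = 0.973), and the mean of all E2f5 probe sets lost the call (0.27, adjusted p = 0.131). Foxm1 itself had a log2 fold change of 0.18 and an adjusted p of 0.474 in the 8 arrays, and 0.11 in the 10. Leaving out single arrays ended the call in 7 of 8 cases for Zwint and Wee1 and in 6 for E2f5.

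DNA replication genes, the nearest other part of the cell cycle, had 29 higher and 22 lower mutant means among 51 on the array in the 8 arrays, with a median of 0.046, and none was called. All 10 arrays gave them 28 higher and 23 lower, with a median of 0.0062. The smallest p-values in the 8 arrays were those of Rfc2, a clamp loader subunit (log2 fold change -0.25, adjusted p = 0.178, and -0.14 in the 10), and Mcm3, a helicase subunit (0.19, adjusted p = 0.235, and 0.10 in the 10). With the number as a block in the 8 arrays, 1 of the 51 was called, beside a background of 5.41% of all tested probe sets. This was Mcm7, another helicase subunit, with a log2 fold change of 0.30 and an adjusted p of 0.0318. The background called higher was 2.40%.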

How the data were processed

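Total RNA of dissected limbs gave biotinylated cRNA for 10 Affymetrix arrays, per the labels' protocols. The authors deposited 1 table of linear intensity values for 45101 probe sets. The submitters' processing notes name GCOS 1.3, and the sources used here do not give the summarization model, the scaling target or detection calls, so distance from background is unknown for dim probe sets. Trimmed means (2%) ran from 276 to 289 and median signals from 145.9 to 152.8, so no normalization was added. An unknown offset in the deposited values would understate fold changes.

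Values below 1 (16 to 24 per array) became 1 before log2. Without the 64 controls, the 22519 probe sets with a mean log2 at or above the median (a signal of 151) were tested with limma 3.58.1 in R 4.3.3 (eBayes with an intensity trend, Benjamini-Hochberg over all tested, threshold 0.05). The script was tested on simulated data first. The platform annotation gave 1 symbol to 34945 probe sets, several to 932 and none to 9160. All 33 gene identifiers were found in the RefSeq table of GRCm38.p6, with 0 symbols changed. Of 71 probe sets of the 33 genes 1 per gene was used, and 7 of those carry a suffix that marks possible cross-hybridisation: Nek2, Pbk, Cdc20, Aurkb, Incenp, Kif2c and Prc1. In 21 genes there were several probe sets, and in 10 of these all had the same sign.

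The genes, lists, the 8-array set and the rule for naming were chosen with earlier results of these data known. The rule gave values in every array to called genes, to the 2 smallest unadjusted p of each role in the 8 arrays (1 for chromosome structure), to the 3 smallest in the 10 arrays and to the brightest and dimmest. Of each further list it named the called genes or, if none, the 2 with the smallest p. The other signals are given as ranges, except that Plk1, whose signal in every array is given, was chosen after its values were seen, as were Foxm1, Mcm7 and the cell type markers named singly.

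No label says what an array number marks. Deviations from the group mean of same-numbered arrays correlated at 0.426, -0.182, 0.266, 0.673 and 0.406 for numbers 1 to 5, so the 10 arrays were not taken as paired. Without number 2 the correlations were 0.548, 0.546, 0.707 and 0.324. The highest with an array of the other group and another number were 0.542, 0.542, 0.517 and 0.517. Number 5 was thus closer to another number than to its own, and for numbers 1 and 3 the values were nearly equal. The block is given beside the 8-array results it changes, without pairing being shown. Alternatives were quantile normalization, median centring, offsets of 16 and 64, no filter or one at the 70th percentile, no trend, array weights, the block, the mean of all probe sets, leaving out each array, and fits within numbers. A planned search for degradation motifs was not run, because no protein sequences were used here.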

Additional observations from a re-analysis of the deposited data

Results flagged for a closer look

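In a group of 5 arrays, 1 array stood apart from the other 4 in 7 of 66 groups tested, where chance flags about 1 in 20. The array labelled Dicer mutant 2 read 1968 for Cdc20 against 2669 to 2753 in the other mutant arrays, 1032 for Kif23 against 1410 to 1570, and 527.4 for Nek2 against 668.5 to 727.8. The same array read 923.1 for Kif20a against 1102 to 1143. The array labelled wild type 2 read 4127 for Cdk1, above 3551 to 3655 in the other wild type arrays. In these 5 genes the array that stood apart carries number 2, whose Dicer1 signals went against both labels. Wild type 5 read 825.9 for Aurka, below 1100 to 1214, and Dicer mutant 3 read 1118 for Tpx2, above 1090 to 1096.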

How the results depend on the processing

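The count of called mitosis genes was 0 in the 10 arrays under every alternative run. In the 8 arrays it was 2, and it was 1 with median centring, 1 with no filter, 6 with array weights (Cdk1, Nek2, Birc5, Cenpa, Kif23 and Prc1), 4 with the replicate block, 0 within numbers 4 and 5, and 0 to 3 when 1 array was left out. It was 0 without Dicer mutant 4 or 5, 1 without Dicer mutant 1 or 3 or any of wild type 1, 3 and 4, and 3 without wild type 5, where Cenpa joined. The replicate block changed no other call among the 33. Over all tested probe sets, 378 were called in the main fit of the 8 arrays, 349 with median centring and 1219 with the block. That number is not given here for array weights, so the 6 calls have no background beside them. Whether the counts among the 33 moved more than those over all probe sets was not tested. The median over the 33 genes stayed between 0.017 and 0.13 in the 8 arrays. In the 10 arrays it was 0.13 within numbers 4 and 5, 0.091 with array weights, 0.025 with the mean of all probe sets, 0.022 with quantile normalization, -0.076 within numbers 1 to 3, and -0.017 to 0.050 when 1 array was left out.

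Prc1 lost its call with median centring (adjusted p = 0.0539), no filter (0.0677) and the mean of its probe sets (0.0557). Signs turned only for genes without a call, except Zwint. With the mean of all probe sets the log2 fold changes were 0.012 for Tpx2 and -0.036 for Zwint in the 10 arrays, and 0.035 for Kif2c, 0.034 for Tpx2 and -0.0056 for Zwint in the 8. Within numbers 4 and 5 they were 0.0015 for Kif2c and 0.025 for Tpx2. Within numbers 1 to 3 they were -0.019 for Cdk1, -0.0033 for Bub1b, -0.076 for Cdc20, -0.081 for Ndc80 and -0.019 for Top2a, and within 1 and 3 -0.051 for Ndc80. When 1 of the 10 arrays was left out, Ndc80 ranged from -0.032 to 0.074, Top2a from -0.0052 to 0.050, Cdc20 from -0.013 to 0.16 and Bub1b from -0.032 to 0.082, and in the 8 arrays Ndc80 ranged from -0.0031 to 0.14. The cause was not tested. With 4 or 5 arrays a group and no detection calls, the number of arrays limits the precision.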
